A study of Homo sapiens with 9 samples.

Results

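The genes examined were NCBP2 and 7 neighbours in band 3q29 of chromosome 3: PAK2, SENP5, NCBP2-AS1, NCBP2AS2, PIGZ, MELTF and DLG1. They were chosen by name and matched by Ensembl identifier, and make up 8 of the 60609 gene identifiers in the count tables. RNA was sequenced after ribosomal RNA removal, per the labels' protocols, from U2-OS cells, an established human osteosarcoma line. The 9 libraries were 3 of clone A1 and 3 of clone A4, which overexpress NCBP2, and 3 of empty-vector cells, with 1 vector clone per library. The libraries of a group are called replicates A, B and C after the letter in their titles. Whether the 3 libraries of an NCBP2 clone were separate cultures is not given, so p-values measure only the spread between these libraries, and each NCBP2 group is 1 clone. The promoter, the transgene's sequence and any selection agent are not given in the sources used here. NCBP2 counts can therefore hold reads of the transgene and of the gene in 3q29, which were not told apart.

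NCBP2 and its large partner NCBP1 form the cap-binding complex of the nucleus. NCBP2 is the smaller of the pair and holds the methylated guanosine cap of RNAs made by RNA polymerase II. The complex passes these RNAs on to splicing, 3′ end formation and export. NCBP2 lies at the distal end of the long arm of chromosome 3, in a band known for a recurrent deletion that removes it along with its neighbours.

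NCBP2 (ENSG00000114503.11) occupies chr3:196935402-196942594 on the minus strand of GRCh38, in GENCODE release 44. Its 5′ end is crowded. NCBP2-AS1 (ENSG00000225578.1, chr3:196939877-196942534, plus strand) is a long noncoding RNA of 3 exons that runs against NCBP2 inside its body. The first 2 of these exons lie in intron sequence of NCBP2, and 1 exon of the 3 overlaps NCBP2 exons, over 142 bases at chr3:196942393-196942534. That stretch holds the whole first exon of the main NCBP2 transcript (103 bases, chr3:196942426-196942528), including the start codon. NCBP2AS2 (ENSG00000270170.2, chr3:196942674-196943543, plus strand), a short protein-coding gene, starts 79 bases beyond the outermost NCBP2 start and points away from it. On the other side, SENP5 (ENSG00000119231.11, chr3:196867856-196934714, plus strand) ends 687 bases from the 3′ end of NCBP2.

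The first sequence below is shown because reads over it were assigned to a different gene on each strand. The second is all that separates the start of NCBP2 from that of NCBP2AS2, and no result on expression rests on its letters. Both are read on the NCBP2 strand, 5′ to 3′. The first is from the GRCh38 genome, with the start codon in capitals. The second is from RefSeq's promoter table (GRCh38.p14), with CCAAT and its reverse complement ATTGG in capitals.
NCBP2 exon 1, coding part, chr3:196942426-196942503, minus strand: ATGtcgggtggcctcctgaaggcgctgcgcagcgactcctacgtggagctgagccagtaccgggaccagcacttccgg
Between NCBP2 and NCBP2AS2, chr3:196942595-196942673, minus strand: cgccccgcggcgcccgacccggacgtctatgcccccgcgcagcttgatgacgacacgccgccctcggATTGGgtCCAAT
The second sequence has CCAAT once on each strand, 2 matches in all. Searched on both strands, CCAAT was present in 14.5% of all windows of 79 bases just before a start in the same table, and in 34.6% of whole promoters of 300 bases. Of the 8 members, 4 had it in any of their promoters of 300 bases (NCBP2, NCBP2-AS1, NCBP2AS2 and DLG1). This is a count by gene, unlike the share of single promoters. NCBP2 and NCBP2AS2 flank the same 79 bases, so their matches can be the same. A match is a description of the letters and not of a bound factor.

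Libraries held 29234022 to 50554080 counts on the strand of annotated genes, out of 80341579 to 111784333 reads. Counts on the opposite strand of a gene made up 5.51% to 6.42% of stranded counts. A read over overlapping genes can be counted on both strands. Clone A1 replicate A had the fewest counts and stood apart: across genes, its log2 CPM correlated with that of the other libraries at r = 0.899 to 0.928, against 0.947 to 0.970 for the other 28 pairs. CPM is the count of a gene per 1000000 counts on the strand of genes, with library sizes adjusted by the TMM method. Of 6 markers of the bone and mesenchymal lineage, VIM, SPARC, COL1A1 and RUNX2 were at 182 CPM or more in every library, ALPL was at 1.20 to 4.12 CPM, and COL1A2 was near absent (at most 1.15 CPM). TERT, which U2-OS cells are known to lack, had 0 counts in all 9 libraries, and EPCAM, CDH1, PTPRC and PECAM1, markers of epithelium, blood and endothelium, reached at most 5.58 CPM.

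NCBP2 rose in both clones, more than 3-fold in A1 and almost 8-fold in A4. On its own strand it stood at 298.9, 348.4 and 304.7 CPM in A1 and at 796.3, 1035 and 456.2 CPM in A4, for replicates A, B and C. The vector libraries had 98.4, 90.6 and 98.3 CPM. The vector clones lay close together, whereas clone A4 spread widely, with its replicate C lowest, and the groups did not overlap. Complete separation above vector was seen for 6.18% of all genes tested in A1 and 6.2% in A4, and of A4 above A1 for 7.92%. More cells with the RNA and more RNA per cell cannot be told apart in such bulk samples. Whether the added reads came from the transgene or from the gene in 3q29 was not tested.

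In edgeR's quasi-likelihood fit over all 9 libraries and 21682 genes, NCBP2 was 3.31 times the vector level in A1 (95% interval 2.30 to 4.77, log2 1.73, SE 0.242, adjusted p = 0.0327). In A4 it was 7.96 times the vector level (5.43 to 11.7, log2 2.99, SE 0.254, adjusted p = 0.000417). It ranked seventh by p-value in A1, where 0.0646% of genes (14) passed an adjusted p of 0.05, and second in A4, where 0.115% (25) passed. Between the clones, NCBP2 differed by log2 1.27 in favour of A4 (SE 0.239), which did not pass (edgeR adjusted p = 0.0764, with 0.161% of genes called). Both comparisons with vector share the vector libraries. The A1 call was lost in 9 of 17 alternatives, over which edgeR's or DESeq2's adjusted p ran from 3.8e-12 to 0.250. Leaving out vector replicate A, B or C ended it (edgeR adjusted p = 0.148, 0.0581 and 0.104), as did leaving out A1 replicate B (0.134), A1 replicate C (0.0892) or A4 replicate A (0.0716). With the libraries of each NCBP2 clone summed, edgeR's adjusted p was 0.250. The A4 call held in all 17, the summed libraries included (edgeR adjusted p = 0.00698). The difference between the clones passed without clone A4 replicate C (log2 1.51, edgeR adjusted p = 0.00681), by DESeq2 (adjusted p = 0.000972) and in edgeR with no filter on low counts (adjusted p = 1.8e-06), and it passed in 4 of 17 alternatives in all.

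Per kilobase of annotated exon, NCBP2 ranked 1971 to 2040 among 13983 protein-coding genes in the vector libraries, 309 to 423 in A1 and 64 to 179 in A4. Among these 3 groups the ranks did not overlap. The length used was the 5111 bases of all annotated NCBP2 exons, whereas the main transcript has 2101. The transgene's length is not given, so the ranks in the clones hold only for the annotated length.

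Reads over the first exon rose far more than reads over the remainder of the gene. Because the opposite-strand column of NCBP2-AS1 holds reads on the NCBP2 strand that touch an NCBP2-AS1 exon, it serves as a count of NCBP2 reads over that first exon. It held 1463, 2862 and 2515 reads in A1, 12149, 10851 and 6076 in A4, and 250, 232 and 155 in the vector libraries, again in the order A, B, C. Every NCBP2 library exceeded every vector library, a separation that 1.16% of genes tested on the opposite strand showed in all 6. As CPM these were 51.5, 77.0 and 59.1 in A1, 255, 247 and 136 in A4, and 5.42, 4.53 and 3.78 in the vector libraries.

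That these reads belong to the shared exon and not to the intron was read from the 3 columns of the count tables. The reads that fit both genes, and are dropped when strand is ignored, can be computed from the NCBP2 row or from the NCBP2-AS1 row, and both sums agreed within 2 reads in every library (12231 from either row in clone A4 replicate A). The agreement shows only that the dropped reads were shared by these genes. The number of reads not shared is what bears on exon or intron. Reads that touched NCBP2-AS1 but no NCBP2 exon, on either strand, and were kept when strand is ignored were 0 to 31 per library. In the vector libraries they were 10, 14 and 17, beside 250, 232 and 155 opposite-strand reads of NCBP2-AS1. That is a larger part than in any library of the clones. The vector values for the first exon therefore include a few reads outside NCBP2 exons.

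Over all 16229 genes of the opposite-strand column, tested as a table of their own, NCBP2-AS1 was the only gene called in either clone by edgeR. A single gene is 0.00616% of that table. The log2 fold change was 3.69 in A1 (SE 0.359, adjusted p = 0.00121) and 5.47 in A4 (SE 0.390, adjusted p = 2.3e-05), which is 12.9 and 44.4 times the vector level. Both calls held in all 13 alternatives. The log2 difference of A4 from A1 was 1.78 (SE 0.331, edgeR adjusted p = 0.402). In that comparison of the clones 0 genes passed (0%), 651 had an unadjusted p under 0.05, and DESeq2 called 22.

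The first exon held 3.85% to 5.50% of NCBP2 reads in the vector libraries, 17.2% to 22.1% in A1 and 23.8% to 32.0% in A4. The means were 4.78% ± 0.848, 19.6% ± 2.44 and 28.6% ± 4.23 (SD, n = 3 each). The 3 groups did not overlap. An exact permutation test (two-sided, 20 splits of 3 against 3) gave p = 0.1 for each pair of groups, the smallest such a design can give (adjusted p = 0.15 over 6 comparisons). The counting error was small beside these differences, with the widest 95% Wilson interval reaching 0.803 percentage points to either side. Counting intervals do not cover differences between cultures or libraries.

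Without the first exon, NCBP2 reads were still higher in the clones. The remaining reads amounted to 255 CPM ± 14.4 in A1, 550.0 CPM ± 234.2 in A4 and 91.2 CPM ± 4.48 in vector (SD, n = 3 each). These means are 2.79 and 6.03 times the vector mean, against 13.7 and 46.5 times for the first exon. The fitted first-exon values given above are lower because that fit took library sizes from the opposite-strand counts. Fitted with gene-strand library sizes, the log2 fold change of first-exon reads was 3.77 in A1 and 5.54 in A4. Of the NCBP2 reads that the clones had above the vector mean, 26.2% in A1 and 31.2% in A4 touched the first exon. Fitted on the remaining reads alone, the log2 fold change of NCBP2 was 1.48 in A1 (edgeR adjusted p = 0.0782) and 2.59 in A4 (edgeR adjusted p = 0.00160), so that the A1 call was lost. In the main annotated transcript the coding sequence makes up 468 of 2101 bases.

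**Figure D1:**
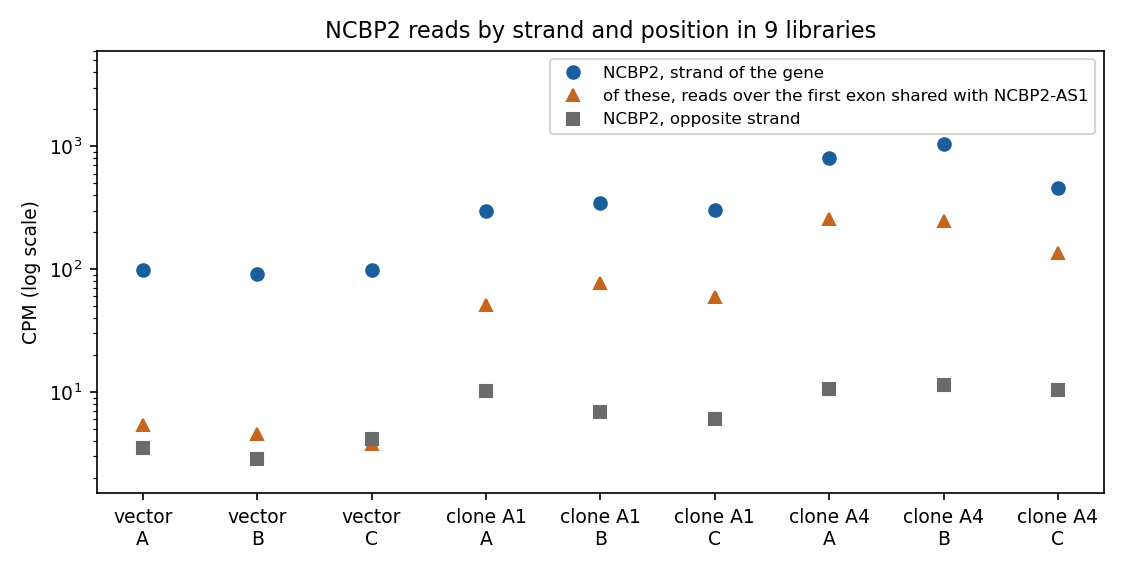
NCBP2 reads in each library, in CPM on a log axis: all reads on the strand of the gene (circles), those of them over the first exon shared with NCBP2-AS1 (triangles), and reads on the opposite strand (squares). First-exon reads lie near 5 CPM in the vector libraries and between 51.5 and 255 CPM in the clones, while opposite-strand reads stay between 2.85 and 11.4 CPM.

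Reads against the direction of NCBP2 were few. The opposite strand of NCBP2 had 289, 256 and 256 reads in A1, 500, 500 and 461 in A4 and 162, 146 and 171 in the vector libraries. As a level this was 7.69 CPM ± 2.19 in A1, 10.7 CPM ± 0.565 in A4 and 3.51 CPM ± 0.661 in vector (SD, n = 3 each). All 6 NCBP2 libraries were above all 3 vector libraries, as for 1.16% of genes tested on the opposite strand. The difference did not pass over all genes in A1 (log2 1.03, SE 0.298, edgeR adjusted p = 0.999) or in A4 (log2 1.52, SE 0.300, edgeR adjusted p = 0.388). By DESeq2, A4 passed, with adjusted p = 0.000731. Some of these opposite-strand reads can be the own-strand reads of NCBP2-AS1 given below. Less those, the counts were 288, 232 and 242 in A1, 409, 414 and 374 in A4 and 162, 144 and 168 in vector.

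As a share of the reads at NCBP2, those on the opposite strand were highest in the vector libraries on average. It was 3.05% to 4.07% in the vector libraries, 1.94% to 3.29% in A1 and 1.09% to 2.21% in A4. A4 lay below vector in every library (two-sided exact permutation p = 0.1, the smallest possible, adjusted p = 0.15), and A1 overlapped vector (exact permutation p = 0.2, adjusted p = 0.24). Of the reads that the clones had above the vector mean at NCBP2, on both strands, 1.85% in A1 and 1.07% in A4 were on the opposite strand. In A4 the opposite-strand reads hardly differed between libraries although the NCBP2 reads differed more than 2-fold, so the share was highest in replicate C.

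**Figure D2:**
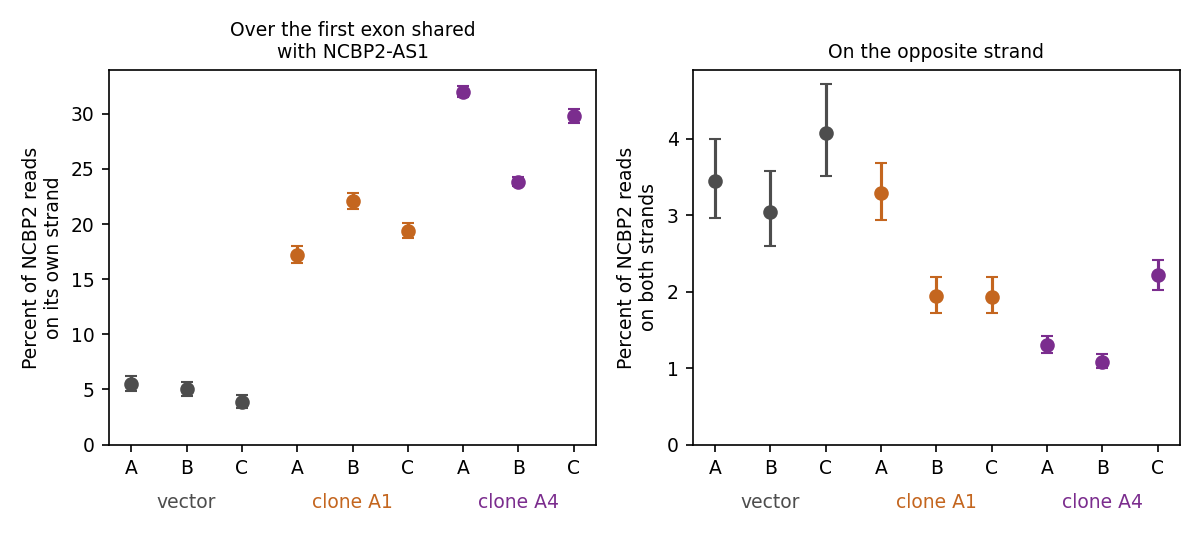
Percent of NCBP2 reads on its own strand that lie over the first exon (left) and percent of NCBP2 reads on both strands that lie on the opposite strand (right), by library, with 95% Wilson intervals. The first-exon share separates vector (at most 5.50%), A1 (17.2% to 22.1%) and A4 (23.8% to 32.0%), and the opposite-strand share is lowest in A4 replicates A and B.

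NCBP2-AS1 on its own strand had 1, 24 and 14 reads in A1, 91, 86 and 87 in A4, and 0, 2 and 3 in vector. The 0 of vector replicate A allows up to 0.0650 CPM at 3 counts. The 3 A4 libraries were above all the others, at 1.94 CPM ± 0.0252 (SD, n = 3), and A1 overlapped vector. Of all genes tested on the gene strand, 6.2% had A4 wholly above vector and 7.92% had A4 wholly above A1. The fitted log2 fold change depends on the few vector reads. It was 5.62 in A4 (SE 1.07, edgeR adjusted p = 0.113) and 3.12 in A1 (SE 1.04, edgeR adjusted p = 0.440), and neither passed. In A4 the call was made by DESeq2, without a filter on low counts, without clone A1 replicate A and with only the 6 libraries compared. The gene passed the filter on low counts through the clones where it was higher.

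These own-strand reads were a small part of all reads over NCBP2-AS1 exons. They made up 0.0683% to 0.832% in A1, 0.743% to 1.41% in A4 and 0% to 1.90% in the vector libraries, and the ranges overlap. Whether they came from an antisense RNA or from NCBP2 reads given the wrong strand was not tested. With strand ignored, NCBP2-AS1 kept 0 to 31 reads per library, and its log2 difference between A4 and vector was -0.88.

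NCBP2AS2, the divergent neighbour, did not pass in either clone. It measured 3.52, 8.82 and 10.0 CPM in A1, 11.01, 8.55 and 12.05 CPM in A4, and 8.02, 12.1 and 9.86 CPM in the vector libraries. The A4 values lay within the vector range, and the lowest value was that of clone A1 replicate A, the library that stood apart. Its log2 fold change was 0.08 in A4 (95% interval -0.69 to 0.85, edgeR adjusted p = 0.9997) and -0.42 in A1 (-1.19 to 0.36, edgeR adjusted p = 0.831). Without clone A1 replicate A the latter was -0.08. Reads on the NCBP2 strand over NCBP2AS2, which lies upstream of the NCBP2 start, were 0 to 9 per library.

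SENP5, a protease that removes the SUMO modifier from proteins, is the neighbour beyond the 3′ end of NCBP2. Its level was 111.0, 111.4 and 115.2 CPM in A1, 101.6, 115.2 and 98.7 CPM in A4, and 122.6, 110.2 and 118.4 CPM in vector. All 3 groups overlapped. The log2 fold change was -0.06 in A1 (95% interval -0.37 to 0.26, edgeR adjusted p = 0.950) and -0.16 in A4 (-0.47 to 0.16, edgeR adjusted p = 0.9997). SENP5 points towards NCBP2. Reads running on past the end of NCBP2 in 3q29, though not past a transgene elsewhere, would fall on SENP5's opposite strand. That strand held 12 to 80 reads in A1, 22 to 65 in A4 and 14 to 32 in vector. Neither clone passed (edgeR adjusted p = 0.9987 in A1). The intervals were wide, at 2.55 times the vector level in A1 (95% interval 0.837 to 7.79) and 1.77 times in A4 (0.585 to 5.37).

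PAK2 (chr3:196739857-196832647, plus strand), a serine/threonine kinase activated by small GTPases, was the most abundant neighbour per kilobase of exon. It stood at 277, 256 and 246 CPM in A1, 219, 284 and 180.0 CPM in A4 and 269.8, 268.7 and 263.9 CPM in vector. Clone A4 spread around the narrow vector range, with replicate C lowest. The log2 fold change was -0.04 in A1 (95% interval -0.42 to 0.33) and -0.23 in A4 (-0.60 to 0.14), with edgeR adjusted p = 0.973 and 0.9997. Its opposite strand held 0.361 CPM in A1, 0.561 CPM in A4 and 0.467 CPM in vector on average, with overlap.

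DLG1 (chr3:197042560-197299330, minus strand), a scaffold protein of cell junctions, stood at 309.4, 216 and 237 CPM in A1, 227, 189 and 200.4 CPM in A4 and 239, 142 and 232 CPM in vector. Vector replicate B was the lowest of the 9 libraries and clone A1 replicate A the highest. The log2 fold change was 0.32 in A1 (95% interval -0.15 to 0.78, edgeR adjusted p = 0.776) and 0.01 in A4 (-0.45 to 0.47, edgeR adjusted p = 0.9997). Its opposite strand held 1.26 CPM in A1, 0.811 CPM in A4 and 0.624 CPM in vector on average. There the A1 libraries lay above vector without passing (log2 0.93, edgeR adjusted p = 0.9987), and A4 overlapped vector. The share of all genes with such a separation in A1 alone was not computed.

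MELTF and PIGZ lie beyond NCBP2AS2 on the NCBP2 strand and were scarce. MELTF (chr3:196980590-197029835), the iron-binding surface protein melanotransferrin, measured 2.36 to 5.71 CPM in A1, 2.66 to 8.37 CPM in A4 and 3.10 to 5.91 CPM in vector. Its intervals were wide, at -1.02 to 0.98 in A1 and -0.67 to 1.32 in A4 on the log2 scale (edgeR adjusted p = 0.996 and 0.9997). PIGZ (chr3:196946356-196969060), a mannosyltransferase of GPI-anchor synthesis, had 0 to 17 reads per library and did not pass the filter on low counts. Its 0 reads in clone A1 replicates A and B allow up to 0.106 and 0.0807 CPM at 3 counts, so no difference was detectable at this depth.

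**Figure D3:**
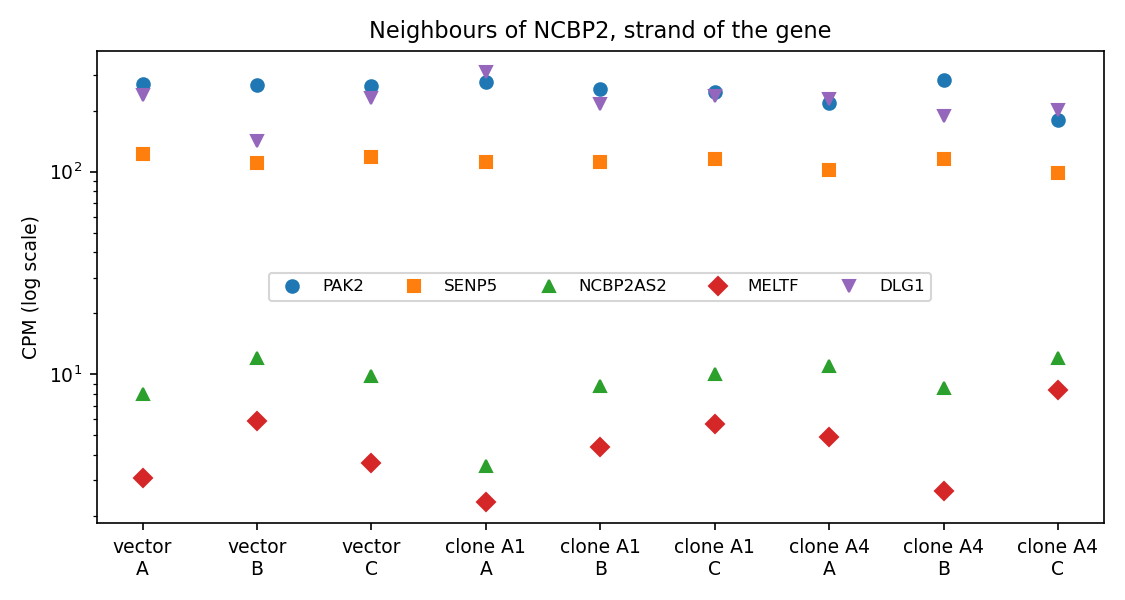
Level of PAK2, SENP5, NCBP2AS2, MELTF and DLG1 in each library, in CPM on a log axis, on the strand of the gene. No gene separates the clones from the vector libraries, and the lowest NCBP2AS2 value is that of clone A1 replicate A.

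Of the 7 members tested on their own strand, NCBP2 was the only one that passed in either clone, beside 0.0646% of all genes in A1 and 0.115% in A4. NCBP2 was compared within each library with the sum of SENP5, PAK2 and DLG1, the neighbours averaging above 30 CPM. The ratio was 0.156 to 0.174 in vector, 0.429 to 0.597 in A1 and 0.952 to 1.76 in A4, with no overlap between groups. Their sum itself ranged from 520.5 to 631 CPM in vector, 584 to 697 CPM in A1 and 479 to 588 CPM in A4.

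The intervals set the limit of what could have been missed. For SENP5 and PAK2 the upper bounds corresponded to 1.19 and 1.26 times the vector level in A1 and to 1.12 and 1.10 times in A4. For DLG1 they were 1.72 and 1.39 times, for NCBP2AS2 1.28 and 1.80 times, and for MELTF 1.97 and 2.50 times. A rise of the size of NCBP2 in the same clone lay outside the interval of each of these 5 genes. A change within these bounds remained compatible with the data. The bounds are not the size of change needed to pass the adjusted threshold.

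**Figure D4:**
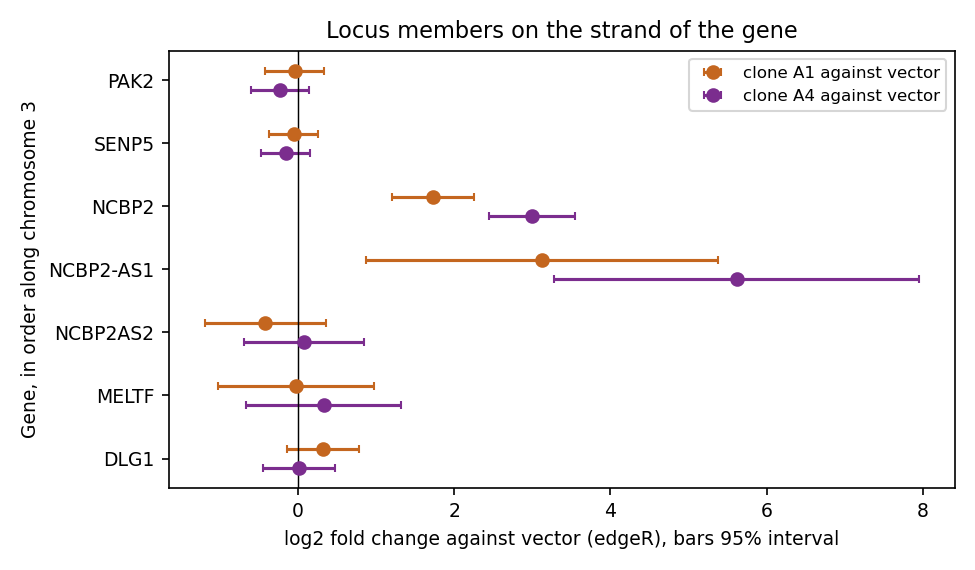
Fitted log2 fold change against vector in clone A1 and clone A4 for the 7 members tested, in their order along chromosome 3, with 95% intervals from edgeR. NCBP2 and NCBP2-AS1 lie above 0 in both clones, NCBP2-AS1 without passing the adjusted threshold, and the intervals of the other 5 members include 0.

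Per kilobase of exon, the order in the vector libraries was PAK2 (42.7 ± 0.498), NCBP2 (18.7 ± 0.873), SENP5 (16.6 ± 0.898), DLG1 (12.3 ± 3.27), NCBP2AS2 (11.5 ± 2.35), MELTF (0.285 ± 0.101), NCBP2-AS1 (0.0666 ± 0.0652) and PIGZ (0.0618 ± 0.0625), each in CPM per kilobase (SD, n = 3). DLG1 and NCBP2AS2 did not differ beyond their spread, nor did NCBP2-AS1 and PIGZ. Lengths are those of all annotated exons joined, which understates genes with long rare exons. They are not the length of the transgene, which is not given. In A1 and A4, NCBP2 was first at 62.1 ± 5.29 and 149 ± 56.9 CPM per kilobase (SD, n = 3 each), and PAK2 followed at 41.4 ± 2.54 and 36.4 ± 8.42.

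The surrounding band was then examined with a list of 22 genes of the recurrent 3q29 deletion, of which 17 could be tested. NCBP2 was the only one called in A1 or A4, and the other 16 had a median log2 fold change of -0.03 in A1 and -0.00 in A4. Among all genes tested the medians were -0.02 and 0.03. In A1 the lowest was BDH1, a mitochondrial enzyme of ketone-body metabolism, at 5.33 CPM ± 1.19 against 9.42 CPM ± 0.323 in vector (SD, n = 3 each; log2 -0.82, edgeR adjusted p = 0.440). BDH1 was also lowest in A4, at 6.26 CPM ± 1.10 (SD, n = 3; log2 -0.59, edgeR adjusted p = 0.946). The highest after NCBP2 were DYNLT2B in A1 (log2 0.96, edgeR adjusted p = 0.800) and TM4SF19 in A4 (log2 0.89, edgeR adjusted p = 0.9997), both under 2.1 CPM on average and named after their values were seen.

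Within 1 Mb of NCBP2 on either side, 79 genes were annotated in the tables and 34 could be tested. Beside NCBP2 and NCBP2-AS1, the remaining 32 held 0 calls in A1 and 0 in A4 by edgeR. Their median log2 fold change was 0.02 in each clone, with 17 above and 15 below 0 in A1, and 18 and 14 in A4. At an unadjusted p under 0.05, edgeR gave 2 of the 32 in A1 (BDH1, and PCYT1A, an enzyme of phosphatidylcholine synthesis) and 1 in A4 (BDH1). Over all genes tested, 7.51% in A1 and 5.25% in A4 were under it, so these counts are not above the background. The lowest values were those of BDH1 in A1 and of the small nuclear RNA pseudogene RNU6-42P in A4 (log2 -0.73, edgeR adjusted p = 0.9997).

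**Figure D5:**
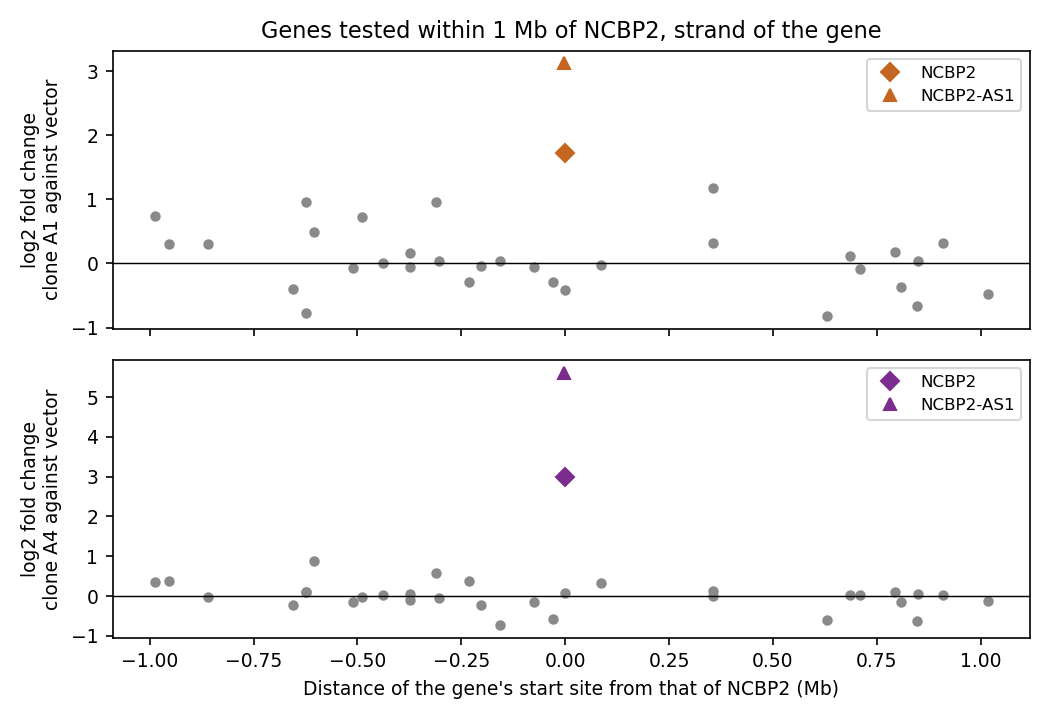
Fitted log2 fold change against vector of the 34 genes tested within 1 Mb of NCBP2, by the distance of each start site from that of NCBP2, for clone A1 (top) and clone A4 (bottom). NCBP2 and NCBP2-AS1 stand above the other 32 genes, whose log2 fold changes stay within 1.17 of 0 in A1 and 0.89 in A4.

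The partners of NCBP2 in the cap-binding complex did not pass in either clone. NCBP1, the large subunit, measured 150.5 CPM ± 8.54 in A1, 127 CPM ± 5.25 in A4 and 149.7 CPM ± 20.6 in vector (SD, n = 3 each). Its log2 fold change was 0.01 in A1 (edgeR adjusted p = 0.996) and -0.23 in A4 (edgeR adjusted p = 0.9997). NCBP3, an alternative partner of NCBP1, measured 64.7 CPM ± 2.79, 63.4 CPM ± 11.1 and 66.1 CPM ± 4.50 in the same order (SD, n = 3 each). NCBP2L, a paralog of NCBP2 on the X chromosome, had 0 counts in all 9 libraries. Of the 7 genes listed for the complex, 6 could be tested and 0 passed in either clone by edgeR, 0 also at an unadjusted p under 0.05. With 7.51% and 5.25% of all genes under that p, a count of 0 among 6 is near the background.

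The 5 genes whose log2 CPM followed that of NCBP2 most closely over the 9 libraries, among 12411 compared, were PCDHB8 (r = 0.974), TMEM45A (0.956), PCDHB16 (0.954), THSD7B (0.943) and LDAH (0.936). The libraries share clones and depth, so these values only describe the pattern. PCDHB8, a clustered protocadherin on chromosome 5, stood at 14.6 CPM ± 2.35 in A1, 23.2 CPM ± 7.83 in A4 and 5.52 CPM ± 0.771 in vector (SD, n = 3 each). TMEM45A, on chromosome 3 but far from the locus at chr3:100492619-100577444, stood at 49.97 CPM ± 4.84, 72.2 CPM ± 12.2 and 33.6 CPM ± 4.63 (SD, n = 3 each). None of the 5 was a locus neighbour. NCBP2AS2, MELTF and DLG1 had r of -0.03, -0.01 and 0.11, PAK2 -0.32 and SENP5 -0.52.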

How the data were processed

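Each deposited table gives 1 library's raw read counts by gene in 3 columns, the first ignoring strand and the others 1 per strand. Their layout is that of STAR's gene counts. STAR 2.7.1a and GRCh38 are named in the submitters' processing notes. The counting settings and annotation are not given in the sources used here. Column 3, with most stranded counts, was read as the gene's own strand and column 4 as the opposite one. Lines that name no gene (44.5% to 63.6% of reads) were left out. Of 60609 identifiers, 60295 matched GENCODE release 44 without the version. NCBP2, NCBP2-AS1 and NCBP2AS2 matched with it.

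Each strand's table was fitted with edgeR 4.0.16 (R 4.3.3; filterByExpr, TMM, robust quasi-likelihood, 3 groups) with Benjamini-Hochberg adjustment over all genes tested. The threshold was an adjusted p of 0.05. Intervals of fold changes come from the same fits. Log2 CPM used a prior count of 2. DESeq2 1.42.0, RLE scaling, no filter, strand ignored, a replicate block, summed clones and each library left out were the alternatives. First-exon reads were counted as the opposite-strand counts of NCBP2-AS1. Libraries of a group differed by more than sampling noise (chi-square per degree of freedom at least 30.2). Genes named were all members, listed genes past the threshold or at either end of their list, NCBP1, NCBP3, NCBP2L and the 5 genes most like NCBP2 with an average log2 CPM of at least 1. The labels' molecule field names polyadenylated RNA, unlike their protocol. The members and lists were chosen with earlier results of these data known.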

Additional observations from a re-analysis of the deposited data

How the results depend on the processing

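Over their alternatives, NCBP2 in A4 against vector (17) and the first-exon reads counted at NCBP2-AS1 in both clones (13 each) kept direction and call. NCBP2 in A1 kept its direction and lost its call with strand ignored (log2 1.44, adjusted p 0.0757), with summed clones (1.73) and without first-exon reads (1.48, an alternative chosen after seeing the data), and the log2 fold change ran from 1.65 to 1.78 with a library left out. NCBP2 in A4 against A1 passed by DESeq2 (1.26), with no filter (1.27), with the replicate block (1.22, adjusted p 0.0488) and without clone A4 replicate C, over a range of 0.97 to 1.51 with a library left out. NCBP2's opposite-strand counts passed in A4 by DESeq2 (1.54). First-exon reads in A4 against A1 passed by DESeq2 (1.79), with no filter (1.79) and without clone A4 replicate C (2.09, adjusted p 0.0429), with a range of 1.57 to 2.09 over libraries left out. Ignoring strand and leaving out first-exon reads drop nearly the same NCBP2 reads (12231 and 12149 in clone A4 replicate A), so these alternatives are not independent. Beyond that, the cause of these changes was not tested.

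In A1 against vector, A4 against vector and A4 against A1 in that order, 274, 185 and 246 genes were called by DESeq2, 312, 163 and 231 with no filter, 1, 4 and 1 with summed clones, and 3 to 14, 7 to 41 and 10 to 56 with a library left out. On the opposite strand, DESeq2 called 16, 8 and 22, the fit without a filter 39, 17 and 33, and fits with a library left out 1 to 3, 1 to 3 and 0 to 1. In A1 against vector, 7 genes were called with only the 6 libraries compared. Whether the letters pair the libraries was not settled: 6 of 9 same-letter pairs deviated together at r above 0.1, and 4 of 9 libraries correlated best with their own letter. Same-letter pairs had r from -0.10 to 0.18, and pairs of different letters from -0.27 to 0.22. With the letter as a replicate block, 38 genes were called in A1, 53 in A4, and 2 on the opposite strand in A1.

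Of 287 alternatives for the neighbours, 4 passed, all of them for NCBP2-AS1 in A4, and 15 changed sign without passing. With strand ignored NCBP2-AS1 stood at -0.88 in A4 against vector and -0.9996 against A1, MELTF at 0.13 in A1 and DLG1 at -0.028 in A4. With summed clones MELTF was at 0.052 in A1 and DLG1 at -0.0010 in A4. With a library left out, NCBP2AS2 in A4 ran from -0.079 to 0.23, DLG1 in A4 from -0.20 to 0.13, and MELTF from -0.33 to 0.31 in A1, -0.18 to 0.64 in A4 and -0.16 to 0.65 between the clones. At 0 to 17 reads, depth left PIGZ untested.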
